A study of Zea mays with 12 samples.

Results

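Cellulose is spun at the plasma membrane by rosette-shaped complexes whose catalytic subunits, the CesA proteins, join glucose from UDP-glucose into chains. In maize, cesa10, cesa11 and CesA12 are known as subunits of the secondary wall, the thick and lignified wall laid down in xylem vessels and fibres. Most other CesA genes serve mainly the primary wall of growing cells. The root needs both kinds of wall, the first for its water-conducting strands and the second for elongation. Described here are 4 of these genes, found by their identifiers in the deposited tables: cesa2 (gene 542564) and cesa3 (gene 542489) of the primary wall, and cesa10 (gene 542685) and CesA12 (gene 542514) of the secondary wall. They are 4 of 37385 genes listed, and all 4 were among the 24311 genes kept by the filter on low values, which asked for 0.5 FPKM or more in 3 or more libraries.

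The study sequenced transcripts of whole roots of maize, DengHai605, aged 40 days, in 4 groups of 3 libraries. The control had normal nitrogen (N), phosphorus (P) and potassium (K), and the other groups were deficient in K, in N or in P, each at the same age and in the same line. The labels give DengHai605 as an inbred line and name no dose or duration of deficiency. The libraries of a group are told apart by the labels 1_3, 4_6 and 7_9. No source ties these to separate plants, so p-values measure the spread between these libraries, which may be technical. FPKM, the unit of all levels here, scales fragment counts by transcript length and by library depth, so that genes can be compared. Comparisons were fitted to log2(FPKM + 1) with limma over all tested genes, with Benjamini-Hochberg adjustment and a threshold of 0.05. The 3 deficiencies were set against the same control libraries, so those comparisons are not independent of each other.

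Depth was 15789850 to 18465979 recovered reads per library. K deficiency 7_9 stood apart: 440 genes held a single recovered read there, against 897 to 1080 in the other 11 libraries. It also had 33.4 recovered reads per FPKM for cesa10, against 40.2 and 40.3 in the other K-deficient libraries, and 146 for cesa2 against 133 and 132. P-deficient libraries 1_3, 4_6 and 7_9 were also low for cesa10, at 35.0, 38.0 and 35.1. For cesa2 they had 132.4, 122.3 and 119.5. Their summed FPKM ran from 608975 to 643745, against 573755 to 596113 in control libraries. For K deficiency against the control, log2 changes of the genes described here are therefore also given without K deficiency 7_9. So are counts of calls in the gene lists. Group means, family sums and shares, and changes of other named genes in K deficiency are given only with that library included. Root markers were present in every library, with 18 matched genes summing to 238 to 327 FPKM, among them the root hair gene rth3 at 50.7 to 108 FPKM. The leaf enzyme gene pep1 was at or near 0 in all groups, although 14 matched leaf genes summed to 17.1 to 33.7 FPKM in the control and to between 5.33 and 14.8 FPKM in the deficient groups. In bulk roots, fewer cells of a type and less RNA per cell cannot be told apart, and this holds for every level below.

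In the control the 4 genes spanned a wide range of levels per transcript length. cesa10 had the highest mean of the 14 listed cellulose synthase genes in every group, and cesa3 the lowest. The levels in the control were 62.7 ± 16.0 FPKM for cesa10, 35.4 ± 8.87 for cesa2, 29.9 ± 5.71 for CesA12 and 11.03 ± 1.42 for cesa3 (SD, n = 3 throughout). Against the summed FPKM of the 14 genes, cesa10 made up 12.4% ± 2.94 and cesa3 2.20% ± 0.433 in the control.

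**Figure D1:**
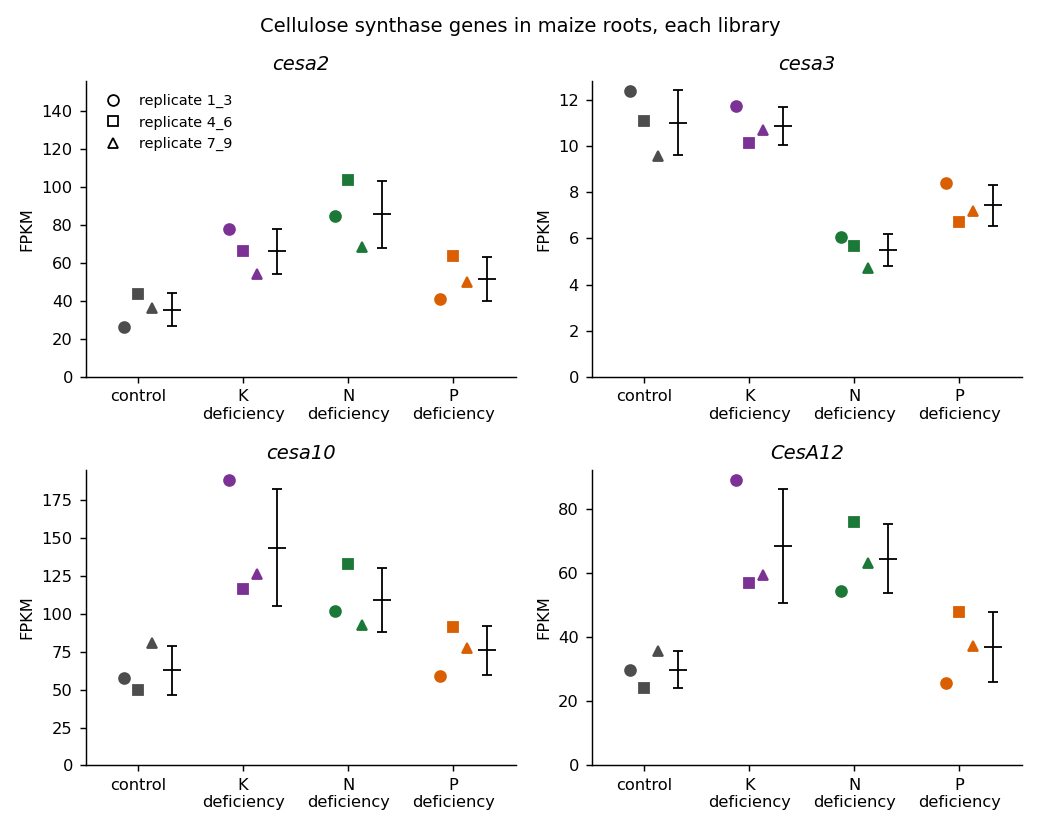
FPKM of cesa2, cesa3, cesa10 and CesA12 (y axes, each from 0) in each library of the 4 groups (x axis). Symbols mark the replicate label, and the bar beside each group gives mean ± SD (n = 3). cesa2, cesa10 and CesA12 are above all control libraries in K and N deficiency, while cesa3 is below all control libraries in N and P deficiency.

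The secondary wall subunits were higher in K and N deficiency. cesa10 stood at 57.5, 50.001 and 80.7 FPKM in control libraries 1_3, 4_6 and 7_9, and at 188, 117 and 126 FPKM in the K-deficient libraries in that order. N-deficient libraries held 102, 133 and 92.5 FPKM of cesa10, and P-deficient libraries 59.2, 91.3 and 77.5 FPKM. All K- and N-deficient libraries lay above the highest control library, whereas the P-deficient ones overlapped the control, and K deficiency 1_3 was the highest of all. The fitted log2 change of cesa10 was 1.18 (SE 0.24, adjusted p = 0.0125) in K deficiency, a 2.29-fold rise in mean FPKM, and 0.80 (SE 0.24, adjusted p = 0.0402) in N deficiency, a 1.74-fold rise. In P deficiency it was 0.28, with a 95% interval from -0.25 to 0.82 (adjusted p = 0.427).

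CesA12, a partner of cesa10 in the secondary wall complex, stood at 29.8, 24.2 and 35.7 FPKM in the control and at 89.0, 57.0 and 59.5 FPKM in K deficiency. It reached 54.4, 76.05 and 63.1 FPKM in N deficiency and 25.8, 47.9 and 37.2 FPKM in P deficiency. As with cesa10, every K- and N-deficient library exceeded every control library, and the P-deficient libraries lay on both sides of them. CesA12 rose by a log2 change of 1.16 (SE 0.25, adjusted p = 0.0143) in K deficiency and 1.09 (SE 0.25, adjusted p = 0.00981) in N deficiency. These are 2.29-fold and 2.16-fold rises in mean FPKM. The change in P deficiency was 0.27, with a 95% interval from -0.27 to 0.81 (adjusted p = 0.447).

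Of the primary wall subunits, cesa2 moved in the same direction as these in K and N deficiency. Its levels were 26.2, 43.8 and 36.2 FPKM in control roots and 78.0, 66.5 and 54.3 FPKM in K-deficient roots. N-deficient roots held 84.7, 104 and 68.6 FPKM of cesa2, and P-deficient roots 41.1, 63.8 and 49.9 FPKM. The N-deficient libraries were all above the P-deficient and the control libraries, and only P deficiency 1_3 fell within the control's range. The log2 change of cesa2 was 1.26 (SE 0.23, adjusted p = 0.00306) in N deficiency, a 2.42-fold rise, and 0.90 (SE 0.23, adjusted p = 0.0351) in K deficiency, a 1.87-fold rise. In P deficiency it was 0.54, with a 95% interval from 0.03 to 1.05 that excluded 0, but it did not pass (adjusted p = 0.113 by limma).

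cesa3 took the other direction. It stood at 12.4, 11.1 and 9.58 FPKM in the control and at 11.8, 10.1 and 10.7 FPKM in K deficiency. Its levels were 6.08, 5.65 and 4.72 FPKM in N deficiency and 8.43, 6.72 and 7.18 FPKM in P deficiency. The K-deficient libraries lay within the control's range, the P-deficient ones below both, and the N-deficient ones below all others. cesa3 fell by 0.89 on the log2 scale in N deficiency (SE 0.14, adjusted p = 0.000951), a 2.01-fold drop in mean FPKM, and by 0.51 in P deficiency (SE 0.14, adjusted p = 0.0216), a 1.48-fold drop. In K deficiency its log2 change was -0.02, with a 95% interval from -0.31 to 0.28 (adjusted p = 0.960).

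In all, 3 of the 4 genes were called in K deficiency, all higher, where 8.72% of all tested genes were called and 4.83% were called higher. Their libraries did not overlap those of the control, as was so, in the higher direction, for 16.8% of tested genes. Of all calls in K deficiency 55.4% were higher, against 45.4% after median-ratio scaling of FPKM, and the 3 genes were called higher under both. In N deficiency all 4 were called, 3 higher and 1 lower, beside 19.0% of tested genes, 9.63% higher and 9.33% lower. No gene of the 4 overlapped the control there, beside 17.7% of tested genes above and 16.5% below it without overlap. In P deficiency 1 of 4 was called and lay apart from the control, both lower. That share is near the 23.4% of all tested genes called. Of tested genes, 10.4% were called lower and 18.0% lay below the control without overlap. Without K deficiency 7_9, the log2 changes in K deficiency were 1.03 for cesa2 (adjusted p = 0.0452), 1.26 for cesa10 (adjusted p = 0.0304), 1.24 for CesA12 (adjusted p = 0.0318) and -0.01 for cesa3 (adjusted p = 0.988).

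Single libraries decided several of these calls. In each of the 12 fits that left out 1 library, the N-deficiency calls of cesa2, CesA12 and cesa3 were kept. The cesa10 call in N deficiency was lost without control 1_3 (adjusted p = 0.126) or 4_6 (0.121), N deficiency 1_3 (0.0783) or 4_6 (0.149), K deficiency 7_9 (0.0526) or P deficiency 7_9 (0.0554). In K deficiency, cesa10 and CesA12 were lost without control 1_3 (adjusted p = 0.0556 and 0.0533) or K deficiency 1_3 (0.0510 and 0.0587), and CesA12 also without control 4_6 (0.0545). The cesa2 call in K deficiency was lost without control 1_3 (adjusted p = 0.143) or 7_9 (0.0559), K deficiency 1_3 (0.125) or 4_6 (0.0892), N deficiency 1_3 (0.0504) or P deficiency 7_9 (0.0512). For cesa3 in P deficiency, the call was lost without control 1_3 (adjusted p = 0.0950) or 4_6 (0.0565), or P deficiency 4_6 (0.0583) or 7_9 (0.0673), and in the authors' deposited table its adjusted p was 0.0810.

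The deficient groups were also set against each other. cesa3 was lower in N than in K deficiency by 0.87 on the log2 scale (SE 0.14, adjusted p = 0.00225), a call kept in all 12 fits without 1 library. It was the sole call among the 4 genes in that comparison, where 9.81% of tested genes were called, 5.93% were called lower and 17.1% were lower without overlap. cesa2, cesa10 and CesA12 differed between N and K deficiency by 0.36 (95% interval -0.15 to 0.87), -0.38 (-0.91 to 0.16) and -0.07 (-0.61 to 0.47), and none of the 3 passed.

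In P against K deficiency, 3 of the 4 genes were called, all lower in P deficiency, where 9.23% of tested genes were called and 6.29% were lower. The log2 differences were -0.90 for cesa10 (SE 0.24, adjusted p = 0.0420), -0.89 for CesA12 (SE 0.25, adjusted p = 0.0457) and -0.49 for cesa3 (SE 0.14, adjusted p = 0.0441), with no overlap between libraries, as for 18.1% of tested genes in that direction. All 3 calls were lost without K deficiency 7_9 (adjusted p = 0.0803, 0.0815 and 0.102). The cesa10 call was also lost without control 1_3, K deficiency 1_3 or 4_6, N deficiency 1_3, or P deficiency 1_3 or 7_9 (adjusted p from 0.0542 to 0.137). The CesA12 call was lost without these and without N deficiency 4_6 or 7_9 (adjusted p up to 0.146). The cesa3 call was lost without control 4_6, K deficiency 1_3 or 4_6, N deficiency 1_3 or 4_6, or any 1 of the P-deficient libraries (adjusted p from 0.0513 to 0.128). The direction was kept throughout. cesa2 was also lower in the mean, at -0.36 (95% interval -0.87 to 0.15, adjusted p = 0.325).

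Between P and N deficiency the libraries of all 4 genes lay apart, with cesa2, cesa10 and CesA12 lower and cesa3 higher in P deficiency. No overlap was seen for 16.1% of all tested genes in the lower and 17.5% in the higher direction. None of the 4 passed after adjustment by limma, where 11.3% of tested genes did, while 3 of 4 had an unadjusted p under 0.05 and voom on recovered reads called 2, cesa2 and CesA12. The log2 differences were -0.72 for cesa2 (adjusted p = 0.0656), -0.52 for cesa10 (0.177), -0.82 for CesA12 (0.0538) and 0.38 for cesa3 (0.0899).

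The order of mean levels was therefore N deficiency, K deficiency, P deficiency and control for cesa2, with no adjacent pair distinguished by the test. For cesa10 and CesA12 the order was K, N, P and control, again with no adjacent pair past the threshold. For cesa3 the order was control, K, P and N, and among its neighbours only K and P deficiency differed.

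A factor applied to a whole library cancels in a ratio of FPKM within it, and nearly so in the tested log2(FPKM + 1) differences. A conversion from reads to FPKM that differs between genes does not cancel. In K deficiency 7_9 there were 146 recovered reads per FPKM for cesa2 and 33.4 for cesa10, against 133 and 40.2 in K deficiency 1_3. The ratio of cesa2 to cesa3 was 2.11, 3.95 and 3.78 in control libraries and 6.63, 6.56 and 5.08 in K-deficient ones. It was 13.9, 18.4 and 14.5 in the N-deficient and 4.88, 9.49 and 6.95 in the P-deficient libraries. Every deficient library exceeded every control library, and the N-deficient libraries lay above all others. Over the 4 groups this ratio differed beyond the spread of libraries in an exact permutation test of all 15400 assignments (p = 0.000455, 0.00273 after adjustment over the 6 pairs of genes). The ratios of CesA12 to cesa3 (mean 2.77 in the control and 11.9 in N deficiency, adjusted exact p = 0.00701) and of cesa10 to cesa3 (5.85 and 19.99, adjusted exact p = 0.0103) also differed between groups. All 3 kept their calls in every fit without 1 library.

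The ratio within the secondary wall pair was alike in the control, K deficiency and P deficiency, and lower in N deficiency. cesa10 exceeded CesA12 2.09-fold ± 0.167 in the control, 2.10-fold ± 0.0418 in K deficiency and 2.10-fold ± 0.194 in P deficiency (n = 3 each), while the N-deficient libraries had 1.88, 1.75 and 1.47. All N-deficient libraries were below the lowest of the others, 1.91. The exact permutation test gave p = 0.0324, or 0.0486 after adjustment, and the call was lost in 11 of 12 fits without 1 library, all but that without N deficiency 1_3, with an adjusted p of 0.214 without N deficiency 7_9 and 0.0971 without K deficiency 7_9. Of the remaining pairs, cesa2 against cesa10 gave an adjusted exact p of 0.112 and cesa2 against CesA12 one of 0.297. Without control 4_6, where cesa2 was highest and cesa10 and CesA12 lowest of the control libraries, both ratios passed (adjusted exact p = 0.00643 and 0.0451).

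**Figure D2:**
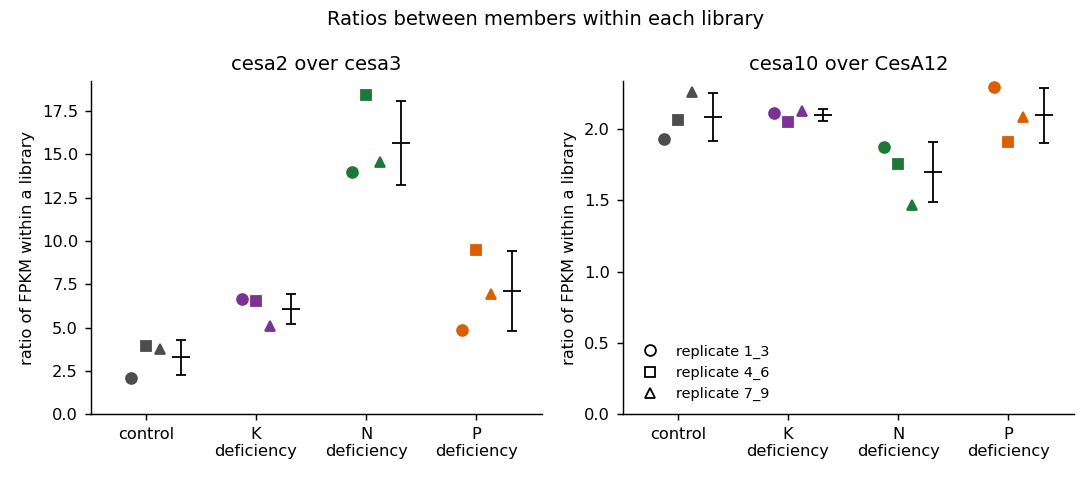
Ratio of FPKM within each library (y axes, from 0) for cesa2 over cesa3 and for cesa10 over CesA12, by group (x axis). Symbols mark the replicate label, and the bar beside each group gives mean ± SD (n = 3). The left panel shows N deficiency at 13.9 to 18.4 above all other libraries, and the right panel shows N deficiency at 1.47 to 1.88 below the rest.

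The wider family gave the setting for these changes. Of 14 cellulose synthase genes matched by symbol or description, 6 rose and 0 fell when K was short. With N short 8 rose and 1 fell, and with P short 0 rose and 1 fell. Of all tested genes, 4.83% were called higher with K short, 9.63% higher and 9.33% lower with N short, and 10.4% lower with P short. The median log2 change of the 14 was 0.75, 0.78 and 0.07 for K, N and P, beside 0.07, 0.04 and 0.08 over all tested genes. Among the 10 genes other than the 4, 3 rose with K short, 5 with N short and 0 with P short, and none fell. The summed level of all 14 was 505 ± 35.5 FPKM in control roots and 548 ± 124 FPKM in P-deficient roots, against 875 ± 150.2 and 855 ± 144.8 FPKM in the K- and N-deficient roots.

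Within the family cesa11, another secondary wall gene, had levels of 50.2, 47.5 and 60.1 FPKM in the control and 134, 106 and 84.3 FPKM in K deficiency. It rose in K deficiency (log2 change 1.01, SE 0.25, adjusted p = 0.0317) and in N deficiency (0.81, SE 0.25, adjusted p = 0.0463). LOC103647435, for which RefSeq gives the synonym CesA13, rose 1.89-fold in K and 1.72-fold in N deficiency (adjusted p = 0.0252 and 0.0278 by limma). Its Pearson's r over the 12 libraries was 0.98 with CesA12, 0.96 with cesa11 and 0.95 with cesa10. It is not assigned to either wall here. CesA-4 of the primary wall rose 1.73-fold and 1.96-fold (adjusted p = 0.0383 and 0.00790 by limma). cesa7 and cesa8, also of the primary wall, rose in N deficiency, 2.39-fold and 1.87-fold (adjusted p = 0.0430 and 0.00985 by limma), at log2 changes of 1.05 and 0.52 in K deficiency that did not pass by limma. The authors' deposited table called cesa7 in K deficiency as well (log2 change 1.07, adjusted p = 0.0263). The difference between N and K deficiency did not pass for either gene (adjusted p = 0.888 and 0.265).

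The primary wall genes CesA-1, CesA-9, cesa5 and cesa6 were called in none of the comparisons with the control by limma. The same held for LOC100280232, which is not assigned to either wall here. Some came near the threshold. CesA-9 was at log2 changes of 0.73, 0.64 and 0.39 in K, N and P deficiency (adjusted p = 0.0514, 0.0522 and 0.191 by limma). CesA-1 was at 0.54, 0.72 and 0.03 (adjusted p = 0.217, 0.0618 and 0.935 by limma). CesA-9 was called in K deficiency in the authors' deposited table (log2 change 0.68, adjusted p = 0.0299). In P deficiency the family had 1 call by limma, against 2 by voom and 0 in the authors' deposited table. cesa5 came nearest to cesa3 in direction, at log2 changes of -0.26, -0.30 and -0.62 in K, N and P deficiency (adjusted p = 0.498, 0.351 and 0.0505). cesa6 was at 0.08, 0.08 and -0.49. Members of this family share long stretches of sequence, and how reads that match several of them were counted is not given in the sources used here, so levels of close relatives are uncertain to that extent.

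**Figure D3:**
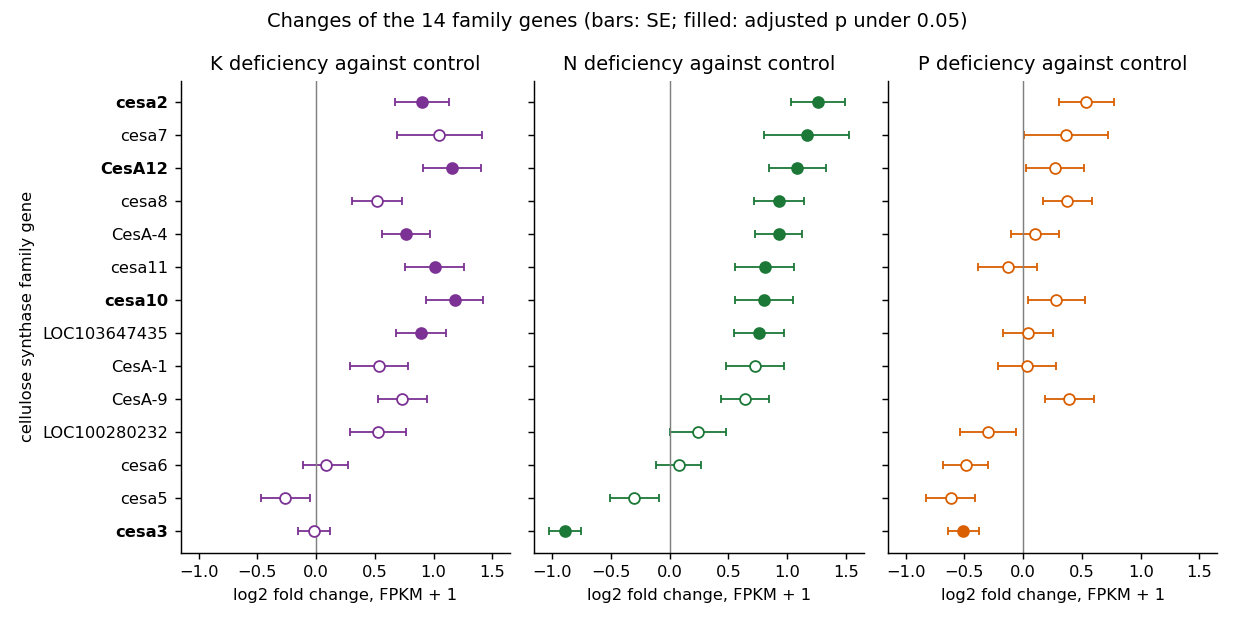
Log2 fold change of FPKM + 1 (x axis) for the 14 cellulose synthase family genes (y axis, ordered by the change in N deficiency, with the 4 genes described here in bold) in K, N and P deficiency against the control. Bars give the SE, and filled points passed an adjusted p of 0.05. Most points are right of 0 in K and N deficiency, with cesa3 at -0.89 in N deficiency, and the points lie on both sides of 0 in P deficiency.

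The family counts also leaned on single libraries. In K deficiency 4 genes rose without K deficiency 7_9, with cesa2, cesa10 and CesA12 among them. The count was 3 without control 4_6 or K deficiency 4_6, and 0 without control 1_3 or K deficiency 1_3. The K-deficiency calls of cesa11, LOC103647435 and CesA-4 were thus also lost without control 1_3 or K deficiency 1_3. In N deficiency 4 rose and 1 fell without control 1_3 or N deficiency 4_6. In P deficiency 3 fell without control 7_9, none rose or fell without control 1_3 or P deficiency 7_9, and 1 rose while 0 fell without control 4_6. Between P and K deficiency, 5 of the 14 were lower, beside 6.29% of all tested genes. They were cesa3, cesa10, CesA12, cesa11 and LOC103647435. Between P and N deficiency, cesa11 and CesA-4 were lower. There 1409 of 24311 tested genes were called lower, and 11.3% were called in either direction.

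As a share of the family's summed FPKM, cesa3 stood at 0.649% ± 0.0930 in N-deficient roots, against 1.26% ± 0.143 in K-deficient and 1.43% ± 0.470 in P-deficient ones. cesa2 stood at 6.96% ± 1.35 in the control and at 9.996% ± 0.548 and 9.41% ± 0.103 in N and P deficiency, where its libraries lay above every control library. In K deficiency it stood at 7.57% ± 0.471, within the control's range. The 3 genes cesa10, cesa11 and CesA12 together made up 28.8% ± 5.30 in control roots and 36.4% ± 2.72 in K-deficient roots. This sum leaves out LOC103647435, with means of 62.2 FPKM in the control and 117 FPKM in K deficiency, so it may understate the secondary wall share. The share of the 3 genes was 31.3% ± 2.01 in N-deficient and 29.5% ± 2.41 in P-deficient roots. K-deficient libraries, at 34.1% to 39.4%, lay just above the highest control library at 33.6%. These shares are given as a description, and they depend on the transcript lengths used for FPKM.

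Several genes shared the order of libraries within a group. cesa10 and CesA12 were both highest in control 7_9, K deficiency 1_3, N deficiency 4_6 and P deficiency 4_6. The same libraries were highest for cesa11, LOC103647435, cesa7, CesA-4 and CesA-9. They were also highest for LOC100283748, described as xylem cysteine proteinase 2, a protease of maturing vessel cells and the one xylem marker that matched. cesa3 was instead highest in library 1_3 of every group, and CesA-1, cesa5, cesa6 and cesa8 in library 4_6 of every group. cesa2 was highest in control 4_6, K deficiency 1_3, N deficiency 4_6 and P deficiency 4_6.

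The xylem marker stood at 4.44, 5.40 and 11.6 FPKM in control roots and 20.2, 5.56 and 13.0 FPKM in K-deficient roots. It reached 17.4, 20.6 and 12.2 FPKM in the N-deficient and 6.01, 20.3 and 9.92 FPKM in the P-deficient libraries. It was not called against the control, at log2 changes of 0.72, 1.19 and 0.63 in K, N and P deficiency (adjusted p = 0.420, 0.115 and 0.368 by limma), although its N-deficient libraries lay above all control libraries. After group means were removed, Pearson's r over the 12 libraries was 0.93 between cesa10 and CesA12, 0.88 between the xylem marker and cesa10, 0.81 with CesA12, 0.58 with cesa2 and -0.22 with cesa3. The marker's r was 0.81 with LOC103647435, 0.76 with CesA-9, 0.71 with cesa11, 0.70 with cesa7 and 0.66 with CesA-4. With LOC100280232 it was 0.54, with CesA-1 0.33, with cesa8 0.08, with cesa6 -0.09 and with cesa5 -0.21. High values were thus not limited to secondary wall genes. These values describe libraries that share RNA source and scaling. The xylem marker's part in the changes of cesa10 and CesA12 was not tested.

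**Figure D4:**
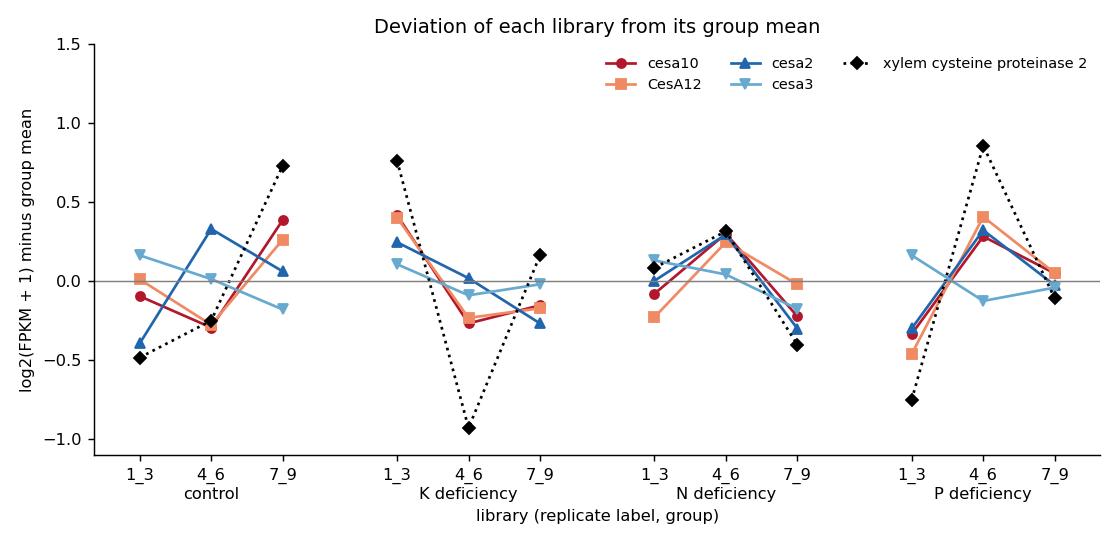
Deviation of log2(FPKM + 1) from the group mean (y axis) in each of the 12 libraries (x axis, by replicate label within group) for cesa10, CesA12, cesa2, cesa3 and xylem cysteine proteinase 2. Lines join libraries of 1 group for legibility only. cesa10, CesA12 and the xylem gene peak in the same library of every group, and cesa3 peaks in library 1_3 of every group.

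Genes with the most similar profiles over the 12 libraries were sought among tested genes with a description and a mean of at least 5 FPKM. For CesA12 they were LOC103647435 (r = 0.98), cesa10 (0.96), LOC100856943, described as a dopamine beta-monooxygenase (0.96), LOC100193840, an IRX15-like protein of xylan synthesis (0.95), and cesa11 (0.95). For cesa10 they were LOC100285106, described as a glucuronosyltransferase (0.97), CesA12, LOC103647435 (0.95), bk2, the brittle stalk 2 gene whose COBRA-like protein is needed for firm maize stalks (0.94), and the glucose transporter LOC100304080 (0.93).

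cesa2 was most like LOC100384563, described as ENHANCED DISEASE RESISTANCE 2 (r = 0.98), Bk2L3, a brittle stalk-2-like protein (0.96), and LOC100282942, a glycosyltransferase of family 47 described as secondary wall related (0.95). LOC100381648, a transmembrane 9 protein, and LOC100191930, with tetratricopeptide repeats, followed at 0.94 each. The profile of cesa3 was closest to LOC100276626, of the DUF538 family (0.96), gst19, a glutathione transferase (0.95), LOC100193074, a profilin that binds actin (0.95), LOC100280155, a phospholipase D (0.94), and gln2, a glutamine synthetase (0.94). After group means were removed, r with cesa3 was 0.76 for LOC100276626, 0.70 for LOC100193074, 0.42 for gst19, 0.36 for LOC100280155 and 0.22 for gln2. For the 5 genes nearest to CesA12 it lay between 0.79 and 0.95.

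Other wall genes were counted by list, to be read against the 8.72%, 19.0% and 23.4% of all tested genes called in the K, N and P comparisons with the control. Of 10 tested partners in cellulose assembly, 1 rose with K short, 2 rose and 1 fell with N short, and 1 fell with P short. The gene bk2 rose 1.68-fold in K deficiency (adjusted p = 0.0192 by limma), and Bk2L3 rose 1.61-fold in N deficiency (adjusted p = 0.0124 by limma). TIDP3736, a chitinase-like protein 1 linked to cellulose assembly in Arabidopsis, was 1.33-fold and 1.36-fold above the control in K and N deficiency and did not pass. Of 12 xylan synthesis genes, 2 rose with K short, 3 rose and 1 fell with N short, and 1 fell with P short. LOC100193840 rose 2.27-fold in K deficiency and 2.02-fold in N deficiency (adjusted p = 0.00839 and 0.00924 by limma). pco120698, a xylosyltransferase of the IRX10 type, fell 1.67-fold in N deficiency and 1.59-fold in P deficiency (adjusted p = 0.0254 and 0.0377 by limma).

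Lignin synthesis genes, which provide the polymer that fills secondary walls, had 5 higher and 1 lower of 37 tested with K short, 6 and 2 with N short, and 3 and 7 with P short. The N and P counts are near the shares called over all tested genes, 19.0% and 23.4%. LOC107282093, a caffeoyl-CoA O-methyltransferase, and pal3, a phenylalanine ammonia lyase at the entry of the pathway, fell 1.63-fold and 1.397-fold in P deficiency (adjusted p = 0.00935 and 0.0356 by limma). Of 7 tested secondary wall transcription factors, 1 rose with K short, 1 fell with N short and 3 fell with P short. NAC103, described as secondary wall NAC transcription factor 4, stood at 4.30 ± 0.129 FPKM in the control, rose to 11.8 ± 1.63 in K deficiency and fell to 2.46 ± 0.0620 in P deficiency (adjusted p = 0.000163 and 0.00506 by limma). In N deficiency it was at 3.41 ± 0.269 FPKM and did not pass (adjusted p = 0.150 by limma). The part of NAC103 in the levels of cesa10 and CesA12 was not tested. NAC131, secondary wall NAC transcription factor 6, fell in N and P deficiency from a low 2.17 ± 0.917 FPKM (adjusted p = 0.0263 and 0.0141 by limma).

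Sucrose synthases, which can supply UDP-glucose to the CesA complex, had 1 of 3 higher and 1 lower in K and in P deficiency, and 1 lower in N deficiency. Of 5 cellulose synthase-like genes, which make other wall glucans, 1 rose in P deficiency and none moved in K or N deficiency. Single libraries carried many of these small counts. Without K deficiency 7_9 the lists kept their numbers except for 2 higher and 2 lower lignin genes with K short, 3 and 6 with P short, and 0 xylan and 0 cellulose synthase-like genes with P short. With K short, assembly partners gave 0 calls without control 1_3, control 4_6 or K deficiency 1_3, and xylan genes 1 without control 1_3, K deficiency 1_3 or K deficiency 4_6. Lignin genes there gave 3 calls without control 1_3 and 2 without control 4_6 or K deficiency 1_3, and sucrose synthases 1 without control 1_3. A call of 2 transcription factors was made with K short when P deficiency 4_6 was left out. With N short, assembly partners gave 1 call without control 1_3 or N deficiency 4_6, xylan genes 2 without control 1_3 or control 7_9, cellulose synthase-like genes 1 without control 4_6 or N deficiency 7_9, and transcription factors 0 without control 1_3 or any 1 of the N-deficient libraries. With P short, assembly partners gave 2 calls without P deficiency 1_3 or 7_9, transcription factors 1 without P deficiency 1_3, and sucrose synthases 1 without control 1_3. Xylan genes there gave 0 without control 1_3, P deficiency 1_3 or P deficiency 7_9, and 2 without control 7_9, K deficiency 1_3 or P deficiency 4_6. The cellulose synthase-like call there was kept as 1 only without N deficiency 4_6 or P deficiency 4_6.

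Markers of cell division, 7 genes in all, summed to 41.9 to 80.6 FPKM in control libraries and to 101.2 to 146 FPKM in P-deficient ones. The sums were 73.1 to 91.1 FPKM in the K-deficient and 62.2 to 96.4 FPKM in the N-deficient libraries, and their part in the levels of the primary wall genes was not tested.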

How the data were processed

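Total RNA of 12 root libraries was sequenced on an Illumina instrument, per the labels. The authors deposited 3 tables, each setting 1 deficiency beside the same control columns, made with DESeq per the file headers and names. Per-library columns hold FPKM per the file headers. The deposited group means are a signal of normalized counts averaged by the authors. The deposited ratio of these means, its log2 and the p-value columns are the authors' comparison. Aligner, build and annotation were not given in the sources used here, so no coordinates or sequences are given. No per-library column was left without a sample (0 columns). Gene names are those of the deposited tables, and 87.4% of gene IDs matched RefSeq (Zm-B73-REFERENCE-NAM-5.0).

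limma 3.58.1 (R 4.3.3) with an intensity trend was fitted to log2(FPKM + 1), which understates changes of low genes, in 24311 genes and all 12 libraries with group as the only term. A fold is a mean FPKM divided by another. Whole reads were recovered from the deposited means for at least 99.79% of genes with a mean above 0 in each group. The rest were filled with estimates from FPKM. These counts served for depth and for a voom fit of genes with at least 10 reads. Ratios between genes, as differences of log2(FPKM + 1), were tested by exact permutation in Python 3.11.15 (numpy 2.4.6, pandas 2.3.3, numba 0.67.0), with 6.49e-05 the smallest p possible. Both tests were tried on simulated data. Plots used matplotlib 3.10.9.

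The members, the gene lists, the markers and the tests were chosen with earlier results of these data known. Named genes were the 4 members, the other family genes, the 3 members with the highest mean FPKM of each other wall list (described in part), and the 5 tested genes most correlated with each member. Alternatives were other scaling, filters, pseudocounts of 0.1 and 10, a replicate block, fits of the 6 libraries compared, voom, the authors' table and leaving out each library.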

Additional observations from a re-analysis of the deposited data

How the results depend on the processing

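Over all alternatives run, no member changed direction except cesa3 in K deficiency against the control (log2 change from -0.10 to 0.07) and CesA12 in N against K deficiency (-0.19 to 0.13), neither of which was called. For each value below, the cause of the change was not tested. With 3 libraries a group, calls near the threshold are fragile. The gene lowest in FPKM of the 4, cesa3, rested on 595 to 1651 recovered reads a library.

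With only the 6 libraries compared, calls were lost for cesa2 in K deficiency (log2 change 0.90, adjusted p = 0.0597), cesa3 in P deficiency (-0.51, 0.0638), cesa10 in N deficiency (0.80, 0.0544), and in P against K deficiency for cesa3 (-0.49, 0.0710), cesa10 (-0.90, 0.0679) and CesA12 (-0.89, 0.0896). Without the filter on low values they were lost for cesa10 in N deficiency (0.80, adjusted p = 0.0558) and in P against K deficiency for cesa3 (-0.49, 0.0505), cesa10 (-0.90, 0.0582) and CesA12 (-0.89, 0.0628). The authors' deposited table gave cesa3 in P deficiency -0.65 (adjusted p = 0.0810). In P against N deficiency, calls were gained by median-ratio scaling for cesa2 (-0.76, adjusted p = 0.0478) and CesA12 (-0.85, 0.0376), and by voom for cesa2 (-0.77, 0.0402) and CesA12 (-0.91, 0.0342). With a pseudocount of 10, the spread of group means of the cesa10 to CesA12 log2 ratio was 0.29 (adjusted exact permutation p = 0.0603).

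With the replicate label as a block, the calls of cesa10 in N deficiency (0.80, adjusted p = 0.0685) and in P against K deficiency of cesa10 (-0.90, 0.0681) and CesA12 (-0.89, 0.0700) were lost. The call of the cesa10 to CesA12 ratio was also lost under the block (0.31, adjusted exact permutation p = 0.0938), cesa2 in P against N deficiency was gained (-0.72, 0.0478), and 3 family genes were called in P deficiency. Deviations of like-numbered libraries correlated above 0.1 in 10 of 18 pairs (r from -0.388 to 0.334). These correlations cannot tell whether like-numbered libraries share a factor. Some family genes, cesa3 among them, were highest under the same label in every group.

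Genes called over the whole table in P deficiency numbered 3304 with 6 libraries and 3249 in the authors' deposited table, beside 5691. They numbered 3372 by voom in P against K deficiency, beside 2245, and 1420 with 6 libraries in P against N deficiency, beside 2740. Family calls in P deficiency were 2 with a pseudocount of 0.1, 2 by voom, and 0 with 6 libraries or in the authors' deposited table. Cellulose synthase-like calls there were 0 after median-ratio scaling, without the filter or with a pseudocount of 10, and 2 in the authors' deposited table. With K short, assembly partners gave 0 and xylan genes 1 with 6 libraries, by voom and in the authors' deposited table, and lignin genes 3 after median-ratio scaling and by voom. Xylan genes gave 2 calls in N deficiency with 6 libraries, and in P deficiency 2 after median-ratio scaling, 0 with 6 libraries and 3 by voom. Transcription factors gave 0 in N deficiency with 6 libraries and in the authors' deposited table, and in P deficiency 1 and 0 in that order.

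Leaving out each library in turn gave log2 changes from 0.70 to 1.07 for cesa2, 0.97 to 1.37 for cesa10 and 0.96 to 1.29 for CesA12 in K deficiency, 0.65 to 0.997 for cesa10 in N deficiency and -0.60 to -0.43 for cesa3 in P deficiency. In P against K deficiency they ran from -0.58 to -0.43 for cesa3, -1.04 to -0.69 for cesa10 and -1.09 to -0.66 for CesA12, and in P against N deficiency from -0.89 to -0.58 for cesa2 and -1.02 to -0.59 for CesA12. The last were called without P deficiency 4_6 (adjusted p = 0.0411 for cesa2 and 0.0267 for CesA12), and CesA12 also without K deficiency 1_3 (0.0464). Genes called ran from 987 to 2329 for K, 2765 to 4646 for N and 2397 to 6306 for P against the control, 1367 to 2549 for N against K, 943 to 2650 for P against K and 1273 to 3188 for P against N. For K, N and P in turn, calls ran from 0 to 8, 5 to 11 and 0 to 3 in the family, 0 to 0, 0 to 1 and 0 to 2 for cellulose synthase-like genes, 0 to 1, 1 to 4 and 1 to 2 for assembly partners, and 1 to 2, 2 to 4 and 0 to 2 for xylan. They ran from 2 to 6, 7 to 10 and 9 to 11 for lignin, 1 to 2, 0 to 1 and 1 to 3 for transcription factors, and 1 to 2, 1 to 1 and 1 to 3 for sucrose synthases. The spread of group means of the log2 ratio ran from 0.21 to 0.38 for cesa10 over CesA12, 0.65 to 0.88 for cesa2 over cesa10 and 0.44 to 0.65 for cesa2 over CesA12.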
